A study of Mus musculus with 8 samples.

Results

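Transcription factors of the forkhead, SOX, T-box and GATA families were followed in stromal cells sorted from intestinal ulcers. The members were all genes of the deposited table whose symbol begins with Fox, a letter from a to s and a digit, or consists of Sox, Tbx or Gata and a number, leaving out 5 genes. This gave 80 of the 53801 genes listed: 45 forkhead, 16 SOX, 13 T-box and 6 GATA. The forkhead count includes Foxd2os, Foxl2os and Foxo6os, noncoding genes that were taken in by their symbols and are not forkhead factors. Forkhead proteins bind DNA through a winged-helix domain, SOX proteins through an HMG box that bends the double helix, T-box proteins through a T domain, and GATA proteins through zinc fingers that read the letters GATA. Such factors set and keep cell identity. In the gut, hedgehog ligands from the epithelium act on the mesenchyme, where Foxf1 and Foxf2 are known targets of the pathway and restrain epithelial growth.

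The 2 groups were YFP-positive and YFP-negative cells, with 4 libraries each, numbered 1 to 4. Both came from the small intestine of LTβR-YFP reporter mice given indomethacin, a cyclooxygenase inhibitor that ulcerates the gut, and both were sorted as cells without the leukocyte antigen CD45 and the endothelial antigen CD31. The sources used here do not give how YFP relates to the lymphotoxin beta receptor, the age of the mice or any pooling of animals. Total counts were 12481608 to 29385718 per library, so that 1 CPM (a count scaled to the library total, in units of 1e+06 counts, after normalisation for library composition) was about 12.5 counts in the smallest.

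The fibroblast and stromal marker Pdgfra stood at 1310 to 2020 CPM in YFP-positive and 1360 to 1970 CPM in YFP-negative libraries. Ptprc, which encodes CD45, stood at 2.08 to 12.2 CPM in YFP-positive and 0.877 to 4.68 CPM in YFP-negative libraries. Pecam1, which encodes CD31, stood at 11.1 to 45.8 CPM in YFP-positive and 11.3 to 46.9 CPM in YFP-negative libraries. Both libraries numbered 2 were far from the other 6 along principal component 1 (40.5% of variance). In all 4 pairs of equal number, summed markers of fibroblasts and enteric glia were lower on the YFP-positive side and those of smooth muscle higher. The pericyte sum was also lower in all 4 pairs, but it was mostly Rgs5; Cspg4, Abcc9 and Notch3 were higher in YFP-positive libraries in 4 of 4 pairs and Kcnj8 in 3. The fibroblast sum of 8 genes was 21700 to 35200 CPM in YFP-positive and 26400 to 52100 CPM in YFP-negative libraries; the part of these shifts in the results was not tested.

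RefSeq promoter sequences (build GRCm38.p6; 250 bases before to 50 after a gene's start) were found for 53 of the 80 members. Tbx2, Foxp2, Tbx3, Foxs1 and Foxf1 had no entry. The windows of Foxf2 and Sox4, which were higher in the YFP-positive library of every pair, are shown with that of Fendrr, the noncoding gene that starts beside Foxf1. Capitals mark matches, on either strand, to a core sequence of the 4 families; no other stretch of these windows is capitalised.
Fendrr, chr8:121083061-121083360, minus strand: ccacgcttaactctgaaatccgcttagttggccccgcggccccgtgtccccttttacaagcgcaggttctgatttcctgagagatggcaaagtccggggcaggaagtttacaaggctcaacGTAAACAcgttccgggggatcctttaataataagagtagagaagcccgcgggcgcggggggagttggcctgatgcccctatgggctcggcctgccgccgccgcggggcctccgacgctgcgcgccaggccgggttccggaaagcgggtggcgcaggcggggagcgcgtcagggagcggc
Foxf2, chr13:31625566-31625865, plus strand: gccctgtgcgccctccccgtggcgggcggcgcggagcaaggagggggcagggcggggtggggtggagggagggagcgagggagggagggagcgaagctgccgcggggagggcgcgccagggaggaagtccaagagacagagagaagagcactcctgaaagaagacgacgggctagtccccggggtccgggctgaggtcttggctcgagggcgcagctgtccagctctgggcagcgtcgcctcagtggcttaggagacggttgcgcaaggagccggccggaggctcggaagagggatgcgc
Sox4, chr13:28953650-28953949, minus strand: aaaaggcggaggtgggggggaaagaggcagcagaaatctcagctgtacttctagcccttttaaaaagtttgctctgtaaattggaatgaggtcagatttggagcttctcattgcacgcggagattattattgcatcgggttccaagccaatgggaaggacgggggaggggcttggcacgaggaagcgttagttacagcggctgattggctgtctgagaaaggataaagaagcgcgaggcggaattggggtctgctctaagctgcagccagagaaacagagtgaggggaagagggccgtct

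The Fendrr window held 1 match, to the forkhead core, and those of Foxf2 and Sox4 held none of the 4. The forkhead core searched was TGTTTAC, which 3.65% of 32851 promoters of this length hold on either strand. The SOX core was AACAAT, present in 10.7% of those promoters. The T-box core was GGTGTGA, present in 3.98% of them. The GATA core was AGATAA, present in 11.2% of them. No core is part of another. The 24 promoters of tested members came from 21 of the 35 tested members, some of which had more than 1 promoter. Of these 24 promoters, 1 held the forkhead core (Sox12), 1 the SOX core (Foxp1), 1 the T-box core (Gata2) and 0 the GATA core. Their median GC content was 68.2%, against 52.7% for all promoters.

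Of the 80 members, 35 had enough counts for the test, 34 had counts below the filter and 11 were at 0 in every library. The comparison asked how stromal cells with the reporter differed from those without it. Of the 35 tested members, edgeR's quasi-likelihood test called 0, as it called 0 of the 15945 genes tested (0%, lowest adjusted p = 0.99985). An unadjusted p of at most 0.05 was found for 3 of the 35 members, against 325 of the 15945 genes (2.04%). DESeq2 and limma without the block also called 0 members. Samples of equal number deviated together, so the number was also fitted as a block. That fit called 364 genes, 2.28% of those tested: 111 (0.696%) were higher and 253 (1.59%) lower in YFP-positive cells. With library sizes alone as the scaling, the split of calls was 212 higher and 153 lower. The fit with the block and the main scaling called 2 members: Tbx2, which rose in YFP-positive cells, and Foxp2, which fell. In it, 10 of the 35 members had an unadjusted p of at most 0.05, against 11.1% of all genes tested. The members were not tested as a set. The words rose and fell refer to this fit throughout. The median log2 fold change of the tested members was 0.01 with the block, against 0.005 over all genes tested. In 7 members the YFP-positive library was higher in all 4 pairs and in 6 lower; over all genes tested 19.0% moved one way in all 4 pairs, 8.86% higher and 10.2% lower. In 0 tested members were the groups free of overlap, against 1.55% of all genes tested. In bulk RNA, fewer cells of a type and less RNA per cell cannot be told apart.

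**Figure D1:**
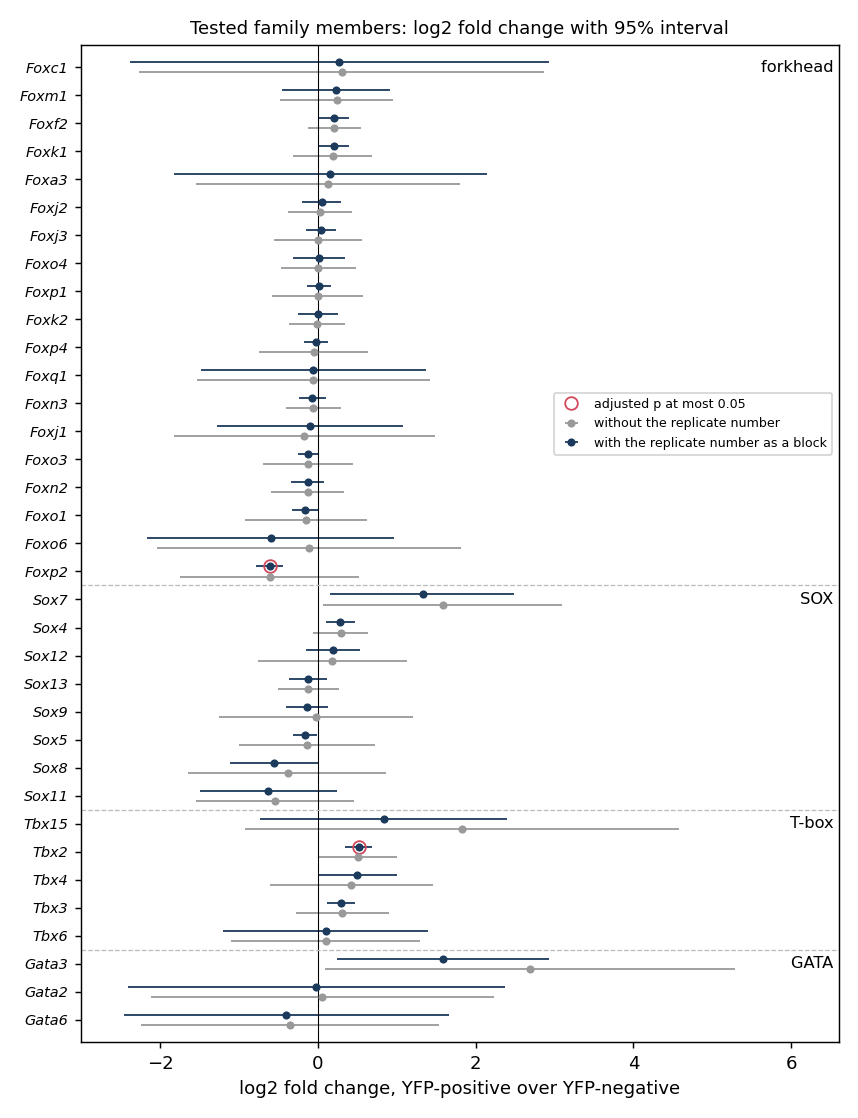
Log2 fold change (YFP-positive over YFP-negative, horizontal axis) of the 35 tested members, grouped by family down the page, with 95% confidence intervals from edgeR with (dark) and without (grey) the replicate number as a block. Only Tbx2 and Foxp2 passed an adjusted p of 0.05 with the block (red rings), and the intervals of Foxc1 and Gata2, both near 1 CPM, span more than 2 log2 units to either side with the block.

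Of the 5 tested T-box genes 1 rose, against 0.696% of all genes tested. In 3 the YFP-positive library was higher in all 4 pairs, against 8.86% of all genes tested. The median log2 fold change of the 5 was 0.50, against 0.005 over all genes tested. That median is the value of Tbx4, which was not called, and the family was not tested as a set. Tbx2, a repressor active in embryonic mesenchyme (ENSMUSG00000000093, GRCm38 chromosome 11, 85832551 to 85841948, plus strand), stood at 95, 108, 157 and 114 CPM in YFP-positive libraries 1 to 4, against 60.1, 87.5, 112 and 74.3 CPM in YFP-negative libraries 1 to 4. Each YFP-positive library lay above its partner of equal number, while the groups overlapped. The mean was 119 ± 26.8 CPM in YFP-positive and 83.4 ± 22.0 CPM in YFP-negative cells (SD, n = 4 each), a ratio of 1.42. The log2 fold change was 0.52 ± 0.0791 (SE; adjusted p = 0.002, edgeR with the block), with a 95% interval of 0.35 to 0.69. Without the block, its interval of 0.01 to 1.00 was wider (unadjusted p = 0.0459, adjusted p = 0.99985, edgeR).

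Tbx3, the closest relative of Tbx2, stood at 64.8, 96.2, 74.1 and 42.9 CPM in YFP-positive libraries, against 54.2, 72.8, 60.4 and 37.0 CPM in YFP-negative libraries. It was higher in all 4 pairs but not called (log2 fold change 0.29, 95% interval 0.12 to 0.47, adjusted p = 0.0953, edgeR with the block). The spread between numbers was larger than the difference between groups. Tbx4, a limb and lung mesenchyme factor that lies 44.47 kb from Tbx2, stood at 4.79, 10.7, 15.2 and 8.79 CPM in YFP-positive libraries, against 3.90, 7.84, 13.5 and 4.05 CPM in YFP-negative libraries. It too was higher in all 4 pairs and not called (log2 fold change 0.50, adjusted p = 0.439, edgeR with the block). Tbx5, which lies 147.9 kb from Tbx3, had 2 counts in all. Per kilobase of exon, Tbx2 was the most abundant T-box gene in both groups, at 32.7 CPM per kb in YFP-positive and 23.0 CPM per kb in YFP-negative cells. Tbx3 followed at 10.5 and 8.47 CPM per kb, and Tbx4 at 2.90 and 2.15 CPM per kb, in YFP-positive and YFP-negative cells. The noncoding partners on the opposite strand, 2610027K06Rik beside Tbx2 and Tbx3os1 beside Tbx3, were not called (adjusted p = 0.97235 and 0.464, edgeR with the block).

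Tbx15 and Tbx6 passed the count filter at low levels. Tbx15, a mesenchymal factor of skeleton and skin, stood at 0.344, 10.8, 0.120 and 1.62 CPM in YFP-positive libraries, against 0.890, 2.30, 0.169 and 0.354 CPM in YFP-negative libraries. The mean of the YFP-positive group rested on library 2. The other 8 T-box genes were below the filter; Tbx21, the T helper 1 factor T-bet, had 40 counts over all libraries and Tbx18, a pericyte and smooth muscle factor, had 43.

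**Figure D2:**
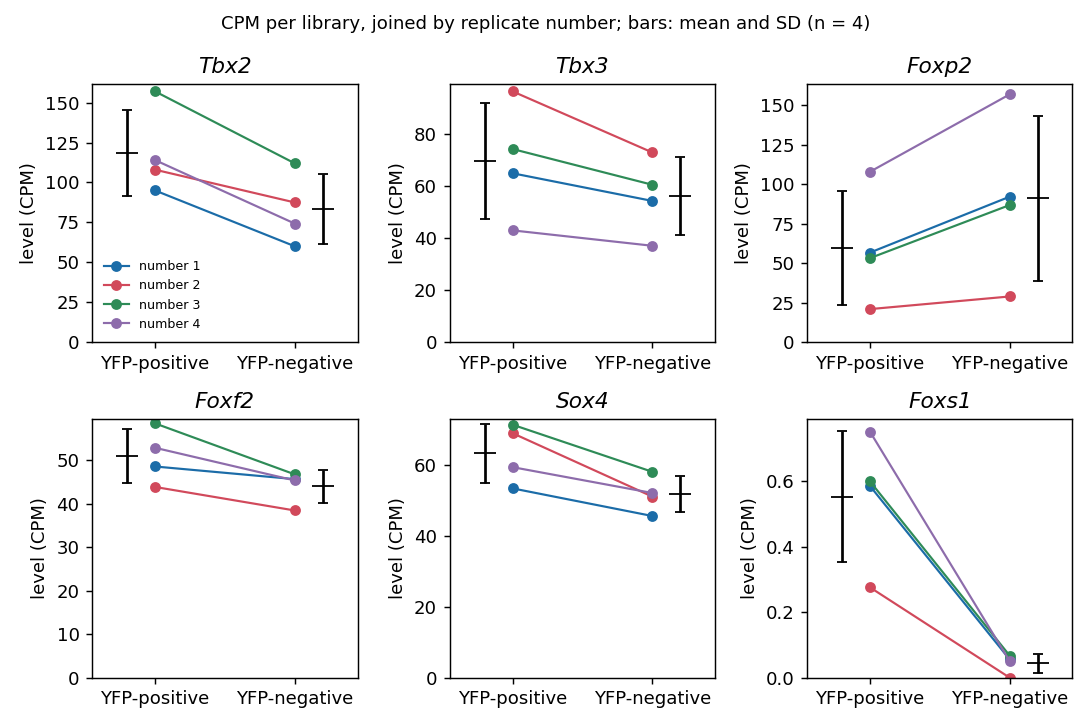
Level in CPM (vertical axis, from 0) of 6 members in each library, YFP-positive left and YFP-negative right; lines join libraries of equal number, and bars give the mean and SD (n = 4). Every line falls towards the YFP-negative side except those of Foxp2, which rise, and only for Foxs1 do the groups not overlap.

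Among forkhead genes, Foxp2 fell. FOXP2 is a repressor that pairs with FOXP1 and FOXP4 and is best known from brain and lung. The gene (ENSMUSG00000029563, chromosome 6, 14901349 to 15441977, plus strand) stood at 56.8, 21, 53.3 and 108 CPM in YFP-positive libraries 1 to 4, against 92.2, 29.0, 86.9 and 157 CPM in YFP-negative libraries 1 to 4. It was lower in all 4 pairs, while library 4 of the YFP-positive group lay above 3 of the 4 YFP-negative libraries. The mean was 59.8 ± 36.0 CPM in YFP-positive and 91.3 ± 52.5 CPM in YFP-negative cells (SD, n = 4 each), a ratio of 0.654. With the block, the log2 fold change was -0.61 ± 0.0818 (SE; adjusted p = 0.000657, edgeR), with a 95% interval of -0.78 to -0.44. Without it the same change had an interval of -1.75 to 0.52 (adjusted p = 0.99985, edgeR). In the authors' deposited table, Foxp2 and Tbx2 were the 2 members with an adjusted p of at most 0.05, at 4.03e-07 and 2.08e-05 (DESeq2). That table called 3.01% of its genes. It was made from the same counts, so it is not separate support.

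The partner genes Foxp1 and Foxp4 were not called. Foxp1 averaged 225 ± 64.2 CPM in YFP-positive and 226 CPM in YFP-negative cells (n = 4), a log2 fold change of 0.01 with a 95% interval of -0.14 to 0.17 in the fit with the block. Foxp4 averaged 122 ± 42.3 CPM in YFP-positive and 127 CPM in YFP-negative cells (n = 4), with an interval of -0.18 to 0.13. The difference between the genes was not itself tested. Of the Foxp1 span, 44.4% was shared with another gene on the same strand, so its counts may be incomplete.

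Foxf2, the hedgehog-responsive factor of gut mesenchyme (chromosome 13, 31625816 to 31631403, plus strand), stood at 48.5, 43.8, 58.4 and 52.8 CPM in YFP-positive libraries, against 45.6, 38.4, 46.7 and 45.3 CPM in YFP-negative libraries. It was higher in all 4 pairs, but the difference was not called (log2 fold change 0.21, 95% interval 0.01 to 0.40, adjusted p = 0.426, edgeR with the block). Its neighbours within 500 kb were low: Foxq1, 64.84 kb away, averaged 1.22 CPM in YFP-positive and 1.28 CPM in YFP-negative cells (n = 4). Foxc1, 175.2 kb away, averaged 1.53 CPM in YFP-positive and 1.24 CPM in YFP-negative cells (n = 4) and had 0 counts in YFP-positive library 1. Foxk1, a regulator of metabolism and autophagy, was also higher in all 4 pairs (log2 fold change 0.20, adjusted p = 0.416, edgeR with the block).

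AKT kinases exclude FOXO factors from the nucleus when insulin or growth factors act. Foxo3 had the highest level per kilobase of exon of all forkhead genes and ranked 2, after Foxf2, per kilobase of gene span. Its level was 43.6 CPM per kb of exon in YFP-positive and 47.3 CPM per kb in YFP-negative cells. It stood at 227, 449, 361 and 283 CPM in YFP-positive libraries, against 243, 472, 391 and 327 CPM in YFP-negative libraries. Foxo1 averaged 85.3 ± 40.5 CPM in YFP-positive and 94.8 CPM in YFP-negative cells (n = 4). Both were lower in all 4 pairs by small amounts that were not called (log2 fold change -0.12 and -0.16, adjusted p = 0.487 and 0.467, edgeR with the block). Foxo4 averaged 17.7 CPM in each group (n = 4), with a 95% interval of -0.31 to 0.34 in the fit with the block. Foxo6 was low, at 1.22 CPM in YFP-positive and 1.32 CPM in YFP-negative cells (n = 4). Foxm1, which drives genes of mitosis, averaged 5.32 CPM in YFP-positive and 4.51 CPM in YFP-negative cells (n = 4; adjusted p = 0.90441, edgeR with the block).

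Foxs1 was the 1 member whose groups did not overlap; among all genes with a count, 0.588% were likewise higher without overlap. Foxs1, a small forkhead gene without introns known from pericytes and neural crest derivatives (chromosome 2, 152931898 to 152933208, minus strand), had 17, 4, 15 and 19 counts in YFP-positive libraries, against 1, 0, 2 and 1 in YFP-negative libraries. Every YFP-negative library lay under 3 counts, the floor that a count of 0 allows. Pooled over libraries, its share of counts was 12.2 times higher in YFP-positive cells, with an exact 95% interval of 4.51 to 46.4 that covers counting error only. The gene lay below the count filter. With every gene of at least 1 count tested, edgeR gave adjusted p = 0.518 with the block, a fit that called 2.26% of those genes, and 0.871 without it. The summed level of 6 pericyte markers was 1200 to 1490 CPM in YFP-positive and 1360 to 1750 CPM in YFP-negative libraries. Of these markers, Rgs5, which makes up most of the sum, was lower in all 4 pairs, at 696 to 1040 CPM in YFP-positive and 900 to 1380 CPM in YFP-negative libraries. Cspg4, the gene of the pericyte antigen NG2, ran in the direction of Foxs1 in all 4 pairs, at 126 to 189 CPM in YFP-positive and 92.7 to 157 CPM in YFP-negative libraries, and so did Abcc9 and Notch3. Higd1b was at or near 0. The part of pericytes in the Foxs1 values was not tested.

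Foxf1, the partner of Foxf2 in gut mesenchyme, was listed at 0 in all 8 libraries, and so was Foxc2 beside it. Both lie wholly inside the annotated span of Gm20388, a gene model of 4.43 Mb on the same strand (chromosome 8, 119910841 to 124345722). All 36 protein-coding genes inside that span on its strand were at 0, among them Cox4i1 and Rpl13, a respiratory chain and a ribosomal protein gene that cells use throughout. On the opposite strand 1 of 35 was at 0. Across the genome, all 446 protein-coding genes that lie wholly inside another gene on the same strand were at 0, including 253 that share no exon base with it. Of 800 inside a gene on the opposite strand only, 23.2% were at 0, and of the 20644 others 15.1%. A 0 in this position therefore gives no level, and the Foxf1 and Foxc2 values, and that of Sox1 inside Sox1ot, were read as not measured.

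**Figure D3:**
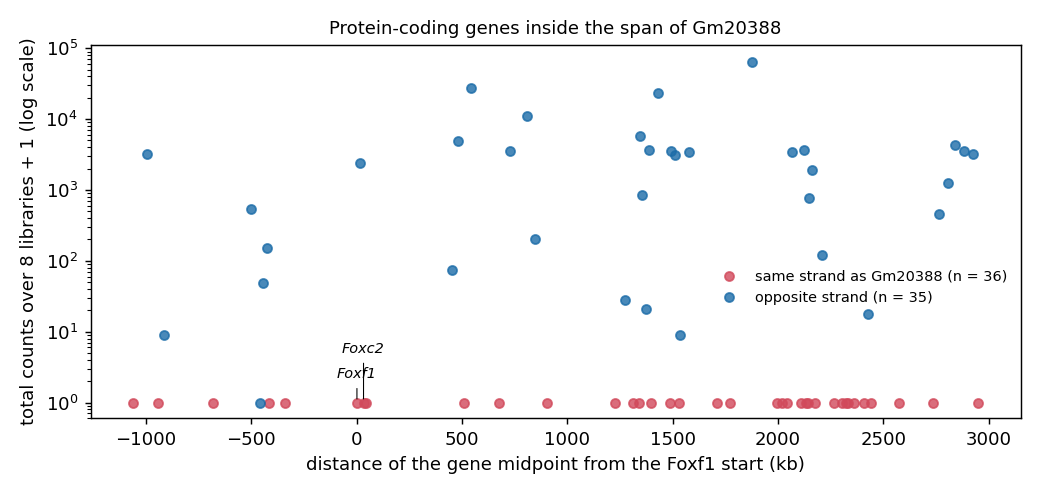
Total counts over the 8 libraries plus 1 (log scale) of the protein-coding genes inside the span of Gm20388, by distance of the gene's midpoint from the Foxf1 start. All 36 genes on the strand of Gm20388 (red), Foxf1 and Foxc2 among them, sit at 0 counts, while 1 of 35 genes on the opposite strand (blue) does.

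Fendrr, a long noncoding RNA of lateral mesoderm, was measurable. It starts 1276 bases from the Foxf1 start, on the opposite strand, and its promoter is the first of those printed above. It stood at 124, 77.2, 176 and 180 CPM in YFP-positive libraries, against 113, 81.9, 147 and 153 CPM in YFP-negative libraries. It was higher in 3 of 4 pairs and not called (log2 fold change 0.14 ± 0.0752, SE; adjusted p = 0.538, edgeR with the block). The level of Fendrr is not a measure of Foxf1.

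The SOX family had 8 tested members and 0 calls. Sox4, of the SOXC group that acts in progenitor cells, stood at 53.5, 69.1, 71.5 and 59.5 CPM in YFP-positive libraries, against 45.7, 51.2, 58.2 and 52.2 CPM in YFP-negative libraries. It was higher in all 4 pairs (log2 fold change 0.28, 95% interval 0.10 to 0.47, adjusted p = 0.135, edgeR with the block). Of the other SOXC genes, neither called, Sox11 averaged 2.96 ± 1.72 CPM in YFP-positive and 4.34 CPM in YFP-negative cells, and Sox12 20.7 ± 9.66 CPM in YFP-positive and 18.2 CPM in YFP-negative cells (n = 4). Whether the 3 genes differ in their change was not tested.

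Sox5, a SOXD factor that works with SOX9 in cartilage, had the most counts of all members. It stood at 256, 816, 448 and 344 CPM in YFP-positive libraries, against 350, 873, 474 and 350 CPM in YFP-negative libraries. It was lower in all 4 pairs, by less than the spread between numbers (log2 fold change -0.16, adjusted p = 0.406, edgeR with the block). Per kilobase of exon it led the family, at 32.4 CPM per kb in YFP-positive and 35.6 CPM per kb in YFP-negative cells. Per kilobase of gene span it ranked 6 in the family and Sox9 ranked 1, because the Sox5 span is 954 kb and reads outside exons are not separated in these counts. Sox9 stood at 55.9, 157, 50.9 and 24.1 CPM in YFP-positive libraries, against 61.0, 146, 46.1 and 39.4 CPM in YFP-negative libraries, with no common direction. Sox8, its SOXE relative, was lower in all 4 pairs, at 6.93 ± 4.31 CPM in YFP-positive and 9.03 CPM in YFP-negative cells (n = 4; log2 fold change -0.56, adjusted p = 0.457, edgeR with the block). The 6 enteric glia markers, cells that express SOXE genes, summed to 6.17 to 12.1 CPM in YFP-positive and 10.1 to 55.2 CPM in YFP-negative libraries; their part in the Sox8 values was not tested.

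Sox7, of the SOXF group of endothelial factors, stood at 1.24, 3.04, 2.96 and 10.5 CPM in YFP-positive libraries, against 1.28, 2.73, 0.641 and 1.37 CPM in YFP-negative libraries. The difference was not called (log2 fold change 1.33, adjusted p = 0.346, edgeR with the block) and was 0.75 on the log2 scale without both libraries numbered 4. The endothelial cadherin gene Cdh5 was at 0.103, 3.87, 11.1 and 31.4 CPM in YFP-positive libraries, against 1.17, 13.8, 2.09 and 1.72 CPM in YFP-negative libraries. Cdh5 was thus also highest in YFP-positive library 4, as were the endothelial markers Kdr, Emcn, Tie1, Egfl7 and Cldn5. Pecam1 was highest in YFP-negative library 2 and Tek in YFP-negative library 1. The part of endothelial cells in the Sox7 values was not tested. Sox17 and Sox18, of the same group, had 41 and 24 counts over all libraries and were not tested.

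GATA factors were scarce. Gata2 and Gata3 serve blood and lymphoid cells, and Gata4, Gata5 and Gata6 serve endoderm, heart and visceral mesoderm. Gata3 stood at 0.310, 13.6, 0.720 and 1.03 CPM in YFP-positive libraries, against 0.111, 1.28, 0.506 and 0.557 CPM in YFP-negative libraries. It was higher in all 4 pairs, but YFP-positive library 2 held 197 of its 293 counts, and the difference was not called (log2 fold change 1.59, 95% interval 0.24 to 2.93, adjusted p = 0.314, edgeR with the block). Without both libraries numbered 2 it was 0.89. The summed leukocyte markers were also highest in YFP-positive library 2, at 27.8 CPM, against 9.04 to 15.0 CPM in the other YFP-positive and 4.01 to 13.8 CPM in the YFP-negative libraries. The markers were mixed: Ptprc, Cd3e, Tyrobp and Coro1a were highest there. Cd79a and Laptm5 were highest in YFP-negative library 2 and Cd52 in YFP-positive library 4, while Itgam was at 0 throughout. The part of leukocytes in the Gata3 values was not tested. Gata6 averaged 1.35 CPM in YFP-positive and 1.69 CPM in YFP-negative cells, and Gata2 1.07 CPM in YFP-positive and 1.01 CPM in YFP-negative cells (n = 4). Their 95% intervals spanned -2.46 to 1.66 and -2.41 to 2.37 log2 units with the block, and the 0.52 of Tbx2 lies inside both. Gata4, Gata5 and Gata1 had 103, 38 and 1 counts. Of the 103 counts of Gata4, 67 came from YFP-positive library 4, whose summed epithelial markers, at 119 CPM, were the highest of the 8.

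Differences between replicate numbers were larger than those between the groups in 28 of the 35 tested members. The SD of the pair means was set against the mean difference on a log2 scale. The same count was not made over all genes tested, so it is not shown to be particular to these members. Both libraries numbered 2 lay above the other 6 in 16 members (45.7%, against 16.5% of all genes tested) and below them in 4 (11.4%, against 20.9%). Sox5, Sox9, Foxo1, Foxo3, Foxp1 and Foxp4 were among the 16, and Foxp2, Foxf2, Foxo4 and Sox12 were the 4. Sox9 reached 157 CPM in YFP-positive and 146 CPM in YFP-negative library 2, and lay between 24.1 and 61.0 CPM in the rest. Foxp2 stood at 21 CPM in YFP-positive and 29.0 CPM in YFP-negative library 2, and between 53.3 and 157 CPM in the rest. The median gene span was 41.4 kb for the 16 members above, 5.97 kb for the 4 below and 14.1 kb for the others. Over all genes tested the same medians were 30.9, 21.2 and 21.9 kb. The labels do not say what the number 2 stands for.

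**Figure D4:**
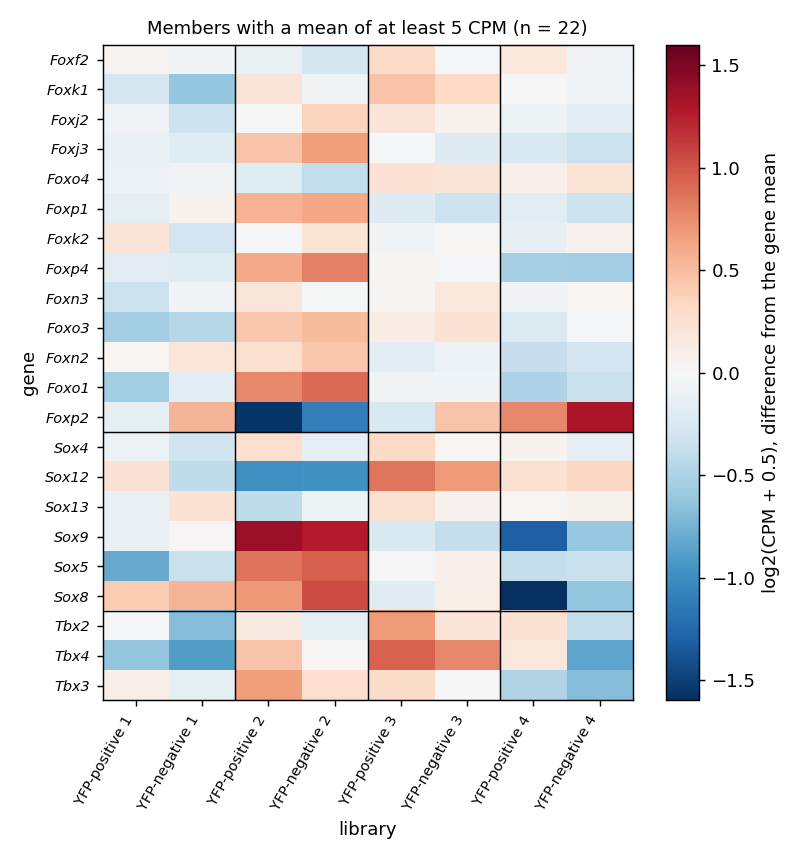
Log2(CPM + 0.5) of the 22 members with a mean of at least 5 CPM, as the difference from the gene's mean over 8 libraries (colour, limited to 1.6 either way; the largest difference was 1.95), with YFP-positive left of YFP-negative within each replicate number. Columns of equal number resemble each other, most plainly number 2, where Sox9 and Sox5 are high and Foxp2 and Sox12 low.

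Genes that work with these families were taken from 7 lists with 70 tested genes. The fit without the block called 0 of them. The fit with it called 2 higher and 7 lower, against 0.696% higher and 1.59% lower of all genes tested. Of 11 tested hedgehog genes, 1 rose and 1 fell (median change -0.04 on the log2 scale, against 0.005 over all genes tested). Ptch1, the hedgehog receptor and itself a target of the pathway, rose to 269 ± 54.9 CPM in YFP-positive cells, against 208 ± 43.7 CPM in YFP-negative cells (n = 4; adjusted p = 0.00395, edgeR with the block). Boc, a hedgehog co-receptor, fell to 58.0 ± 9.04 CPM in YFP-positive cells, against 79.5 ± 17.4 CPM in YFP-negative cells (n = 4; adjusted p = 0.0169, edgeR with the block). Gli1, a target of the pathway in gut mesenchyme, was at 40.5 ± 5.16 CPM in YFP-positive and 43.3 ± 2.63 CPM in YFP-negative cells (n = 4) and was not called.

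Of 21 tested transcription factors of mesenchyme outside the 4 families, 1 rose and 3 fell (median log2 fold change -0.09). Nkx2-3, a homeobox gene of gut mesenchyme, rose to 180 ± 37.6 CPM in YFP-positive cells, against 141 ± 38.0 CPM in YFP-negative cells (n = 4; adjusted p = 0.0149, edgeR with the block). Osr1, a zinc finger gene of mesenchymal progenitors, fell to 21 ± 6.40 CPM in YFP-positive cells, against 35.1 ± 11.1 CPM in YFP-negative cells (n = 4; adjusted p = 0.00552, edgeR with the block). Meis2, which encodes a partner of HOX proteins, fell as well, with a log2 fold change of -0.28.

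Of 8 tested GATA cofactors and T-box partners 1 fell: Zfpm2, or FOG2, which binds GATA factors, was at 60.7 ± 15.6 CPM in YFP-positive and 88.8 ± 23.4 CPM in YFP-negative cells (n = 4; adjusted p = 0.0101, edgeR with the block). Its relative Zfpm1 lies inside Gm20388 on the same strand and was listed at 0. Of 18 genes that regulate FOXO factors or are their targets, 2 fell, the repressor Bcl6 and the kinase Sgk1 (log2 fold changes -0.43 and -0.36). Of 5 mitotic FOXM1 targets, 2 SOX9 targets of cartilage and 5 partners or targets of SOXF factors, 0 were called. Only Ptch1 kept its call in all 11 other fits with the block; the other 8 genes lost it in 1 to 5 of them. Leaving out both libraries numbered 3 ended the call of all 8 of these genes (Meis2, for example, at adjusted p = 0.149, edgeR).

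Other tested members were called in neither fit. Foxn3, a transcriptional repressor, was among the higher of these, at 194 ± 28.7 CPM in YFP-positive and 203 ± 14.4 CPM in YFP-negative cells (SD, n = 4 each). Foxj3 averaged 62.7 CPM in YFP-positive and 62.5 CPM in YFP-negative cells. Foxk2, the relative of Foxk1, averaged 50.9 CPM in YFP-positive and 51.2 CPM in YFP-negative cells. Foxj2 averaged 41.0 CPM in YFP-positive and 40.2 CPM in YFP-negative cells. Foxn2 averaged 39.0 CPM in YFP-positive and 42.8 CPM in YFP-negative cells and was lower in all 4 pairs (log2 fold change -0.13, adjusted p = 0.747, edgeR with the block). Sox13, a SOXD gene like Sox5, averaged 38.0 CPM in YFP-positive and 41.3 CPM in YFP-negative cells. Foxj1, the factor of ciliated cells, averaged 1.97 CPM in YFP-positive and 2.22 CPM in YFP-negative cells, and the endoderm factor Foxa3 0.847 CPM in YFP-positive and 0.770 CPM in YFP-negative cells.

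The members that were not tested had few or 0 counts. The 34 members with counts below the filter had 1 to 103 counts over all libraries, with a median of 17, and 14 of them had under 10. They included Foxa1 with 60 counts, an endoderm factor, and Foxp3 with 38, the regulatory T cell factor. Of the 11 members at 0, 8 lie inside no gene of the same strand, among them Foxb1, Foxe3, Foxi1 and Sox14. For these, a 0 allows a level of up to 0.24 CPM in the smallest and 0.102 CPM in the largest library, by 3 counts.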

How the data were processed

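Gene-level raw counts, taken from the deposited table's whole-number columns (its headers mark a separate set as normalised), were used for 8 libraries of sorted stromal cells. Per the submitters' processing notes, GRCm38 was the build and DESeq2, featureCounts 2.0.1, STAR 2.7.3a and cutadapt 3.4 were used. The sources used here do not give their settings, the annotation release or the strand setting. Per the labels' protocols, libraries came from total RNA by a stranded low-input SMARTer kit. The table also holds the authors' normalised values, a rounded score per library that was not used, and the authors' comparison as a fold ratio, its log2 value, and raw and adjusted p-values, per the file headers.

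All tests were computed from the counts, in R 4.3.3 with edgeR 4.0.16: filterByExpr by group (15945 genes kept), TMM scaling, quasi-likelihood dispersions estimated robustly, two-sided tests of group, Benjamini-Hochberg adjustment over all genes tested, calls at an adjusted p of 0.05. An SE is the log2 fold change divided by the root of its F statistic. The fit was also run on simulated counts, which held a replicate effect by construction and a fixed dispersion. That run is therefore no support for the pairing or for any call. GENCODE M21 (GRCm38) gave positions, spans, exon lengths and overlaps for 53620 of the 53801 genes. The labels do not say whether libraries are separate animals, so p-values measure the spread between these samples only. Every pair within a group differed by more than counting noise, with chi-square at least 55.9 times its degrees of freedom.

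The pairing by number comes from the data, not the labels. The authors' deposited log2 fold changes also lay near those of DESeq2 with the block. For Gata3 the deposited value was 1.58, against 1.59 with the block and 2.68 without it. After subtracting each group's mean, log2(CPM + 0.5) correlated at 0.328, 0.592, 0.475 and 0.465 between libraries of equal number, and at most at 0.0732 between unequal numbers. The log2 fold changes, intervals and medians in the Results are therefore those with the block unless stated, also for genes called in neither fit. The main fit had no block, and its values could differ. In edgeR without the block, Gata3 was at 2.69 and Sox7 at 1.59, against 1.59 and 1.33 with it. The members, lists and tests were chosen with earlier results of these data known. Members named with full values were those called, those without overlap of the groups, the 3 highest per kb of exon and the 2 of lowest p in each fit and family, and their neighbours within 500 kb; Sox8, Sox11, Sox12, Foxo1, Foxp1 and others outside this rule were added for their family role after their values were seen. Alternatives were limma 3.58.1, DESeq2 1.42.0, other scalings and filters, and leaving out libraries. Counting intervals and floors cover counting error only. Some genes are not reported here.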

Additional observations from a re-analysis of the deposited data

Results flagged for a closer look

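Within groups of 4, the gap between the farthest library and the rest was compared with the whole range for the named members. In 5 of 39 groups the gap exceeded Dixon's 95% limit; for normally distributed values chance gives about 1 in 20, a rate that does not carry over to levels near 0 counts. Gata3 stood at 13.6 CPM in YFP-positive library 2, against 0.310 to 1.03 CPM in the other YFP-positive libraries. Tbx15 stood at 10.8 CPM in the same library, against 0.120 to 1.62 CPM in the others. Tbx5 stood at 0.138 CPM in that library, which is 2 counts, and at 0 in the other 3, so that any count there would have exceeded the limit. Gata6 stood at 3.90 CPM in YFP-negative library 1, against 0.852 to 1.01 CPM in the other YFP-negative libraries. Foxf2 stood at 38.4 CPM in YFP-negative library 2, against 45.3 to 46.7 CPM in the others.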

How the results depend on the processing

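Without the block, 0 genes were called in edgeR under every scaling, filter and left-out library, and 0 with limma; DESeq2 called 2 genes, of which 0 were members. With the replicate block, 364 genes, 2 members and 9 other listed genes were called. In the other blocked fits the genes called numbered 416 (CPM of at least 2 in 4 libraries), 673 (any count of at least 1), 525 (DESeq2), 613 (limma voom), 364 (RLE factors), 335 (upper-quartile factors), 365 (library sizes alone) and 194, 426, 157 and 167 with both libraries numbered 1, 2, 3 and 4 left out in turn. The other listed genes called numbered 9, 11, 10, 11, 9, 7 and 6 in the same order, and 3, 12, 1 and 4 with numbers 1 to 4 left out in turn. The members called numbered 2 in each blocked fit except limma voom (4, with Tbx3 and Sox7) and library sizes alone (4, with Tbx3 and Sox4). Tbx2 and Foxp2 kept their call and direction in all 12 blocked fits, with log2 fold changes of 0.47 to 0.61 and -0.65 to -0.52 and adjusted p up to 0.0298 and 0.0186 (edgeR, both without number 3). 

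Directions turned for members with a small or uncertain change, none of which was called. With library sizes alone the log2 fold change was 0.0308 for Foxp4, 0.0536 for Foxq1 and 0.0532 for Sox9, and with the block 0.0632 for Foxp4 and 0.0322 for Foxq1. With limma it was -0.541 for Foxc1, 0.0679 for Foxp4, 0.144 for Foxq1 and -0.254 for Gata2, and with the block 0.165 for Foxq1 and -0.333 for Gata2. Gata2 was at -0.0237 with the block, -0.0347 with RLE factors, -0.0124 with upper-quartile factors and -0.0037 without a filter. Without the block, leaving out single libraries gave ranges of -0.853 to 0.81 for Foxc1, -0.3 to 0.0391 for Foxo3, -0.3 to 0.282 for Foxp4, -0.35 to 0.459 for Foxq1, -1.05 to 0.42 for Gata2, -0.99 to 0.466 for Gata6, -0.55 to 0.248 for Sox5, -0.74 to 0.551 for Sox9 and -0.374 to 2.77 for Tbx15. With the block and both libraries of a number left out, Foxc1 was at -0.0061, -0.514 and -0.205 (without 2, 3 and 4), Foxp4 at 0.034 (without 2), Foxq1 at 0.211, 0.0508 and 0.0297 (without 1, 2 and 4), Gata2 at -0.46 and -0.844 (without 2 and 4), Gata6 at 0.627 (without 1) and Sox9 at 0.0401 (without 4). The cause was not tested. Foxs1 could be tested in 8 fits and was called in 0 (lowest adjusted p = 0.318).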
